A study of Mus musculus with 6 samples.

Results

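The replication-dependent histone genes encode the core and linker histones that a dividing cell makes in bulk while it copies its DNA. They were taken from RNA-seq tables of primary mouse motoneuron cultures as the protein-coding genes whose symbol begins with Hist1h, Hist2h, Hist3h or Hist4h, which gave 68 of the 39174 genes listed. By type, 6 encode the linker histone H1, 19 encode H2A, 18 encode H2B, 12 encode H3 and 13 encode H4. By cluster, 55 belong to Hist1 on chromosome 13, 10 to Hist2 on chromosome 3, 2 to Hist3 on chromosome 11 and 1 to Hist4 on chromosome 6. Of the Hist1 genes, 54 lay between 21715763 and 23934851 (GRCm38), and Hist1h2al stood apart at 51202688 to 51203065 on the same chromosome.

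The study compared 3 Nmd+/+ libraries with 3 Nmd-/- libraries, all from cultures of the strain CD-1. Nmd-/- animals are homozygous for a mutant allele (nmd) of the helicase gene Ighmbp2, whose human counterpart is mutated in spinal muscular atrophy with respiratory distress. Libraries carried replicate numbers 1 to 3 in each genotype, and the sources used here do not state how many animals or cultures stood behind a number. The p-values below therefore describe the spread between these libraries, part of which may be technical.

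Pairs of H2A, H2B, H3 and H4 molecules form the spool around which DNA is wrapped, and H1 binds the DNA between spools. The genes for these proteins are short, mostly without introns and packed in clusters, and are transcribed mainly in S phase with the help of the coactivator NPAT. Most of their mRNAs end in a short stem-loop, bound by the protein SLBP, in place of a poly(A) tail, whereas a minority can also be polyadenylated, chiefly in cells that have stopped dividing. The libraries were made from total RNA with an mRNA kit, and how mRNA was selected is not given in the sources used here. A level below is thus that of the transcripts the kit captured, and a low value does not show that a histone mRNA was scarce in the cells.

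Stem-loops are shown first because they are the sequence that sets this gene family apart, and because their letters divided by histone type. The 16 letters GGNNCTT, any base, T, any base and AGNNCC, in that order, were searched on the transcript strand after the stop codon in GENCODE M21 transcripts (GRCm38), and 46 of the 68 genes (67.6%) held a match. Anywhere in a transcript, the same letters occurred in 0.621% of 21901 protein-coding genes. A transcript model that ends near its stop codon cannot hold a match, so a gene without one may still have a stem-loop. The match began between 21 and 58 bases after the stop codon, with a median of 31. The sites below are printed as DNA, 5′ to 3′, with the 16-base stem-loop in capitals.
Hist3h2ba, chr11:58949349-58949364, + strand: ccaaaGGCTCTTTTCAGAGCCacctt
Hist1h1c, chr13:23739512-23739527, + strand: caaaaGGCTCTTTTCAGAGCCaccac
Hist3h2a, chr11:58955172-58955187, + strand: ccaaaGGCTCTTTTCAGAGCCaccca
Hist1h3c, chr13:23745047-23745062, - strand: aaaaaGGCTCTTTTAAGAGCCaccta
Hist1h4c, chr13:23698089-23698104, - strand: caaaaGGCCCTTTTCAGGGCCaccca
Hist1h4i, chr13:22040966-22040981, - strand: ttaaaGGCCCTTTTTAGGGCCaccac
Hist1h4j, chr13:21735437-21735452, + strand: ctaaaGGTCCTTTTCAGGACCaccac

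The first 5 letters of the stem separated H4 from every other type. All 34 matches in H1, H2A, H2B and H3 genes began with GGCTC. None of the 12 matches in H4 genes did: 10 began with GGCCC and 2 with GGTCC. The single most frequent stem-loop, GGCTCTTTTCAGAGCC, occurred in 26 genes, and the commonest in H4 genes, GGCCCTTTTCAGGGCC, in 7.

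Poly(A) signals are shown next because of the libraries' dependence on mRNA capture. AATAAA or ATTAAA stood after the stop codon and in the last 50 transcript bases of 17 of the 68 genes (25%). Of these 17, 14 also held a stem-loop match. The share of all protein-coding genes was 77.9%, but there the last 50 bases were searched wherever the stop codon lay. The shares are thus not like for like. A transcript model that ends near its stop codon can show no signal, which may apply to short models such as that of Hist1h4k (312 bases). The signals of the 5 genes that had one and exceeded 5 FPKM follow, in capitals. Those of Hist3h2a and Hist1h4i lie in the GENCODE M21 transcript but outside the locus of the gene as deposited with its level. FPKM, the unit of all levels here, is fragments counted on a gene relative to its transcript length and to the library's total.
Hist3h2ba, chr11:58949507-58949512, + strand: taatggtattAATAAAtttggttcaa
Hist3h2a, chr11:58956797-58956802, + strand: gtatatgcccAATAAAataagagtac
Hist1h1c, chr13:23740342-23740347, + strand: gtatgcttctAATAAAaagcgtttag
Hist2h2be, chr3:96223717-96223722, + strand: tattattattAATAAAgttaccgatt
Hist1h4i, chr13:22040651-22040656, - strand: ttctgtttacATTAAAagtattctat

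The libraries were checked before the histone genes were compared. Ighmbp2, the mutated gene, measured 1.44, 1.303 and 1.09 FPKM in Nmd+/+ replicates 1 to 3 and 0.876, 0.788 and 0.598 FPKM in Nmd-/- replicates 1 to 3. Groups did not overlap, but the log2 difference of -0.38 (SE 0.14) did not pass limma's test over all genes (adjusted p = 0.9997). The label of a motoneuron culture was weakly borne out, since 1 of 7 motoneuron markers reached a mean of 1 FPKM (Isl1, between 0.608 and 1.81 FPKM), while Chat stayed at or below 0.0692 FPKM and Mnx1 at or below 0.0247 FPKM. All 6 general neuron markers and all 7 markers of radial glia and astrocytes exceeded that level. None of the 3 markers each of microglia, endothelium and red cells did. Replicate 2 of each genotype held fibroblast transcripts, with 6 markers summing to 141 and 174 FPKM against 2.22 to 3.52 FPKM in the other 4 libraries. Depth, read from the width of the deposited 95% intervals, was equivalent to between 15382006 (Nmd+/+ replicate 2) and 23072449 fragments (Nmd+/+ replicate 1).

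The histone genes were low as a family, and a few genes carried much of the signal. Only 6 of the 68 exceeded a mean of 5 FPKM over the 6 libraries, 42 reached 1 FPKM and entered the tests, 26 stayed below it, and Hist1h2aa was listed at 0 in every library. The median gene stood at 1.38 FPKM. All 68 together held between 0.02005% and 0.0354% of a library's summed FPKM, and the 2 highest, Hist3h2ba and Hist1h2bc, held between 31.6% and 39.6% of the histone sum. Near the 1 FPKM limit, Hist1h3f lay just inside with a mean of 1.07 FPKM and Hist2h2ac just outside with 0.955 FPKM. Depth per gene was modest: the median tested histone gene rested on the equivalent of 26.6 fragments in Nmd+/+ replicate 2 and 70.3 in Nmd+/+ replicate 1.

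**Figure D1:**
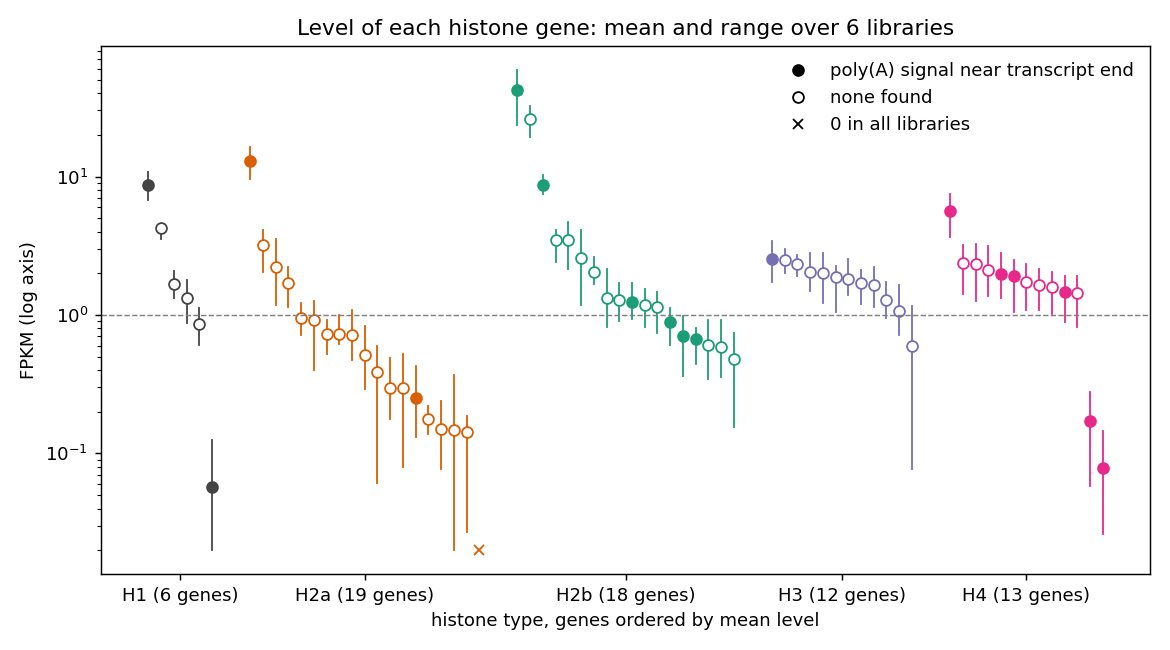
Level of each of the 68 histone genes in FPKM on a log axis, grouped by histone type and ordered by mean. Points are means over 6 libraries, lines span the lowest to the highest library (values of 0 are not drawn on the log axis), filled points have a poly(A) signal in the last 50 transcript bases, and the dashed line marks 1 FPKM. Hist3h2ba, at 41.9 FPKM, and Hist1h2bc, at 26.0 FPKM, stand above all others, and 5 of the 6 genes over 5 FPKM are filled.

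Of the 6 genes over 5 FPKM, 5 had a poly(A) signal near the transcript end in GENCODE M21. For Hist3h2a and Hist1h4i it lay outside the deposited locus. In order they were Hist3h2ba (41.9 FPKM), Hist1h2bc (26.0), Hist3h2a (12.98), Hist1h1c (8.68), Hist2h2be (8.62) and Hist1h4i (5.64). Hist1h2bc was the exception, with no poly(A) signal in its last 50 transcript bases and no stem-loop match. A signal was no guarantee of a high level: Hist1h1t and Hist4h4 have one and lay at 0.0573 and 0.0779 FPKM. The median was 1.47 FPKM over the 17 genes with a signal and 1.33 FPKM over the 51 in which none was found. Both splits were made after the values were seen and are given as descriptions.

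The linker histone genes differed widely in level. Hist1h1c (H1.2; ENSMUSG00000036181, chromosome 13, 23738807 to 23740366) measured 9.90, 6.75 and 7.46 FPKM in Nmd+/+ replicates 1 to 3 and 8.03, 9.17 and 10.8 FPKM in Nmd-/- replicates 1 to 3. The groups overlapped, and the log2 difference was 0.20 (SE 0.18). Hist1h1e (H1.4) was nearly flat, at 4.43, 3.54 and 4.47 FPKM against 4.28, 4.43 and 4.22 FPKM. Hist1h1a (H1.1) lay between 1.33 and 2.08 FPKM. Hist1h1t, the testis form of H1, stayed at or below 0.124 FPKM. The 4 tested H1 genes all had a log2 difference above 0, between 0.05 and 0.20, none of which passed the test.

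Among H2A genes, 15 of 19 stayed below 1 FPKM. The exception in level was Hist3h2a (ENSMUSG00000078851, chromosome 11, 58954685 to 58956674), which measured 16.2, 9.65 and 13.5 FPKM in Nmd+/+ and 14.5, 11.5 and 12.5 FPKM in Nmd-/-, so that replicate 2 was lowest and replicate 1 highest in both genotypes. Hist2h2aa1 measured 4.14, 2.05 and 3.64 FPKM against 3.16, 3.57 and 2.61 FPKM, and Hist2h2aa2 3.56, 1.17 and 2.199 FPKM against 2.43, 2.11 and 1.78 FPKM. These 2 genes cannot be read apart, since 89.2% and 100% of their 50-base words also occur in another histone gene of the family. Their symbols and positions match GENCODE M21, but their identifiers are exchanged there. The log2 differences of the 4 tested H2A genes lay between -0.03 and 0.02.

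H2B genes held the largest share of the family. Hist3h2ba (ENSMUSG00000056895, chromosome 11, 58948911 to 58949532), with no 50-base word in common with another member, measured 58.8, 23.4 and 46.8 FPKM in Nmd+/+ and 52.7, 31.4 and 38.6 FPKM in Nmd-/-. Hist1h2bc (ENSMUSG00000018102, chromosome 13, 23684199 to 23692488), whose gene model spans 8290 bases with an intron, measured 32.2, 22.6 and 19.4 FPKM against 27.3, 28.2 and 26.2 FPKM. These 2 genes did not follow each other: in Nmd-/- libraries the first varied by number and the second hardly at all. Hist2h2be (ENSMUSG00000068854, chromosome 3, 96221121 to 96223738) was highest in replicate 2, where Hist3h2ba was lowest, at 10.2 FPKM in both genotypes. The other 4 libraries lay between 7.54 and 8.49 FPKM. Hist2h2be did not pass limma's test of replicate number, given below (adjusted p = 0.0818). Hist2h2bb lay between 2.42 and 4.10 FPKM, but its identifier carries another symbol, Gm42743, in GENCODE M21, so its identity is uncertain.

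H3 genes were low, with 11 of 12 between a mean of 1 FPKM and that of the highest, 2.53 FPKM, whereas among H4 genes 1 stood above the rest. The 3 highest H3 genes were Hist2h3c1 at 2.28, 2.52 and 2.37 FPKM in Nmd+/+ and 1.73, 2.84 and 3.44 FPKM in Nmd-/-, Hist1h3c between 2.02 and 3.002 FPKM, and Hist1h3i between 1.90 and 2.72 FPKM. Hist1h4i (ENSMUSG00000060639, chromosome 13, 22040816 to 22041352) was the highest H4 gene, at 7.51, 3.64 and 4.20 FPKM against 7.20, 5.36 and 5.93 FPKM. Hist1h4k measured 3.21, 1.41 and 1.83 FPKM against 2.87, 2.68 and 2.12 FPKM. The 12 H3 genes had a median of 1.86 FPKM and the 13 H4 genes one of 1.73 FPKM, against 1.26 FPKM for H2B and 0.515 FPKM for H2A.

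H2A and H2B genes often stand head to head and share the stretch between their starts. In GENCODE M21, 12 such pairs had starts within 500 bases of each other (between 176 and 306), and the H2B gene had the higher mean in all 12. It was higher in each of the 6 libraries for 10 of the pairs, the exceptions being Hist1h2ag with Hist1h2bj (4 libraries) and Hist1h2ao with Hist1h2bq (5 libraries). The median ratio over the 11 pairs with an H2A value above 0 was 4.66, and 8 had a ratio of 2 or more. The widest gap was between Hist1h2ac, at 0.733 FPKM, and Hist1h2bc, at 26.0 FPKM, a ratio of 35.4. Next came Hist1h2ae with Hist1h2bg (0.253 and 3.45 FPKM) and Hist2h2ac with Hist2h2be (0.955 and 8.62 FPKM). The pairs were singled out after their values were seen. H2A genes shared more of their 50-base words with other members (median 67.6%) than H2B genes did (median 42.1%). In the widest pair the order was the reverse, at 11.6% for Hist1h2ac and 29.4% for Hist1h2bc. Gene models differed too: the longest GENCODE M21 transcript was 2482 bases for Hist1h2ac and 1156 bases for Hist1h2bc. In Nmd+/+ replicate 1 this pair rested on the equivalent of 90.3 and 1252 fragments. Whether reads that fit several genes or the length of the models had a part in these ratios was not tested.

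The stretch between Hist1h2ac and Hist1h2bc is printed because these neighbours differed most in level although their starts lie 251 bases apart. It is the 250 bases before the Hist1h2ac start in RefSeq (GRCm38.p6, chr13:23683960-23684209, - strand) and reaches past the Hist1h2bc start at 23684199. Capitals mark the TATA, CCAAT and octamer motifs spelled out in the next paragraph, each in either orientation.
Hist1h2ac promoter: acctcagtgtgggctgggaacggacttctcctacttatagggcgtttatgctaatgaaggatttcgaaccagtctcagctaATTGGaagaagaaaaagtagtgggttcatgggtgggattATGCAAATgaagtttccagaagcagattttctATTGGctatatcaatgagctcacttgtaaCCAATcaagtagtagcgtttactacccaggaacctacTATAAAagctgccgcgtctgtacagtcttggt

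These motifs were searched on both strands of the 250 bases before the start of 61 histone genes with a RefSeq promoter, and of 27025 genes in all. TATAAA, the core of a TATA box, occurred in 29 of the 61 (47.5%) against 14.3% of all promoters, and CCAAT in 50 (82%) against 37.5%. ATTTGCAT, the octamer, occurred in 14 (23%) against 1.81%. Types differed: the octamer was found in 7 of 17 H2A and 7 of 16 H2B promoters and in none of the H1, H3 or H4 promoters, and CCAAT in all 17 H2A and all 16 H2B promoters but in 3 of 12 H4 promoters. Paired H2A and H2B genes share sequence in these windows, so their counts are not independent. A match describes letters only.

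The first comparison, Nmd-/- with Nmd+/+, asks whether histone mRNA levels differed between genotypes. No histone gene passed the test. With limma on log2(FPKM + 1), 0 of the 42 tested genes had an adjusted p under 0.05, as for all 14611 genes (0% called), and 0 of 42 had an unadjusted p under 0.05, against 65 genes (0.445%) overall. The summed FPKM of the 68 genes was 239, 139 and 167 in Nmd+/+ replicates 1 to 3 and 203, 189 and 188 in Nmd-/- replicates 1 to 3. The Nmd+/+ sums lay on both sides of the Nmd-/- sums, with means of 182 ± 51.4 (SD, n = 3) and 193 ± 8.25 (SD, n = 3) and a ratio of 1.07. That ratio became 1.26 when Nmd+/+ replicate 1 was left out and 0.954 when Nmd+/+ replicate 2 was. With the replicate block, 0 of 42 passed either the adjusted (0% of all genes) or the unadjusted threshold, where 3.13% of all genes were higher and 1.74% lower in Nmd-/-.

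**Figure D2:**
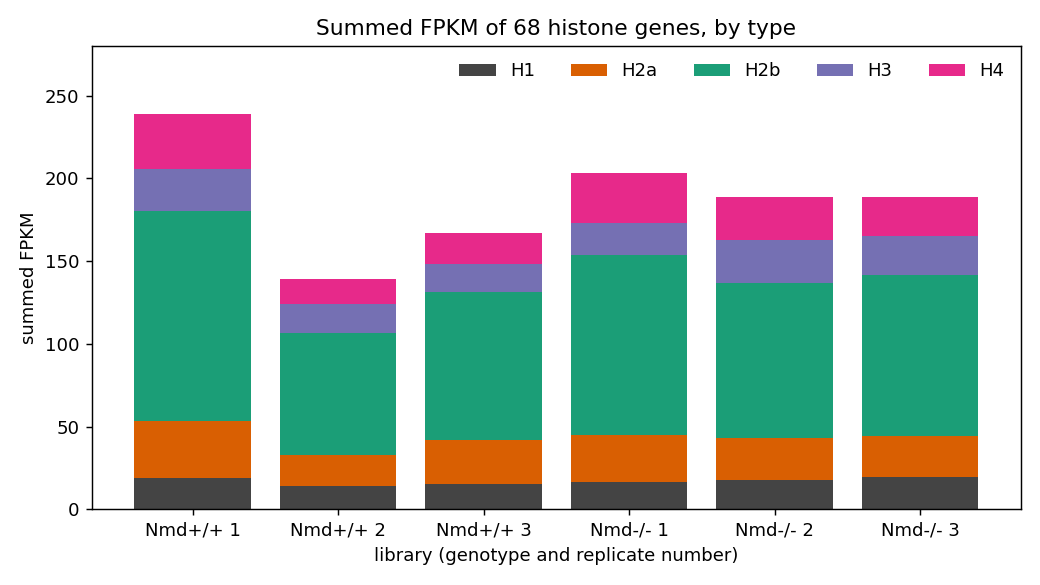
Summed FPKM of the 68 histone genes in each library, stacked by histone type, with the vertical axis starting at 0. Nmd+/+ replicate 1 is the highest library at 239 and Nmd+/+ replicate 2 the lowest at 139, while the 3 Nmd-/- libraries lie between 188 and 203.

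By type, the ratio of the mean sums, Nmd-/- over Nmd+/+, was 1.12 for H1, 0.982 for H2A, 1.03 for H2B, 1.14 for H3 and 1.20 for H4. By cluster it was 1.13 for Hist1, 1.03 for Hist2 and 0.957 for Hist3. For each of these types and clusters the groups overlapped: the Hist1 sum, for example, was 137, 83.4 and 85.3 in Nmd+/+ and 114, 119 and 113 in Nmd-/-. In a culture of mixed cells, fewer cells of a type and less RNA per cell cannot be told apart in such values.

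Single differences leaned one way but were small. Of the 42 tested genes, 36 (85.7%) had a log2 difference above 0, against 56% of all tested genes, and with median-of-ratios scaling the shares were 85.7% and 48.7%. The median difference was 0.16 against 0.02 for all genes, the range -0.05 to 0.35, and the median SE 0.19. The size of the lean depended on which libraries were included. Without Nmd+/+ replicate 1 it widened to 40 of 41 genes with a median of 0.30, against 58.5% and 0.04 for all genes. In that setting 8 genes, all higher in Nmd-/-, had an unadjusted p under 0.05 in limma (1.95% of all genes did). No adjusted p was below 0.998. Without replicate 2 of both genotypes the lean was no longer seen. There 25 of 43 genes were above 0 with a median of 0.02, against 55% and 0.02 for all genes.

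Groups failed to overlap for 2 of the 42 genes (4.76%), both higher in Nmd-/-, against 1.76% of all genes, and for 0 in the other direction, against 0.91%. The first was Hist1h2bf, an H2B gene, at 1.81, 1.83 and 1.68 FPKM in Nmd+/+ and 1.93, 2.63 and 2.47 FPKM in Nmd-/-, a log2 difference of 0.26 (SE 0.14, 95% interval -0.06 to 0.59). The other was Hist1h3e, an H3 gene, at 1.57, 1.13 and 1.56 FPKM against 1.78, 2.21 and 1.66 FPKM, a difference of 0.25 (SE 0.15, 95% interval -0.10 to 0.60). Neither passed (adjusted p = 0.9997 for each in limma, 0.999 with the replicate block). Both share much of their sequence with other members, at 65.8% and 73.4% of their 50-base words.

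Larger differences were found on the high side than on the low side. Hist1h2bg had the largest log2 difference, 0.35 (SE 0.24), at 4.66, 2.203 and 2.14 FPKM in Nmd+/+ and 3.60, 4.03 and 4.08 FPKM in Nmd-/-, with Nmd+/+ replicate 1 above all Nmd-/- libraries. Hist1h2bl differed by 0.26 (SE 0.15), from 1.07 ± 0.24 to 1.47 ± 0.22 FPKM (SD, n = 3 each). On the low side the differences were -0.05 for Hist2h2bb, -0.03 for Hist1h3f, -0.03 for Hist2h2aa2 and -0.03 for Hist2h2aa1.

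Same-numbered libraries were then compared pair by pair. In pair 1, Nmd-/- was above Nmd+/+ for 7 of 42 genes (16.7%), against 49.4% of all tested genes. In pair 2 it was above for 41 of 42 (97.6%, against 52.7%) and in pair 3 for 34 of 42 (81%, against 57.6%). The median log2 difference of the 42 genes was -0.23, 0.40 and 0.28 in the 3 pairs, against medians of -0.00, 0.02 and 0.04 for all genes. The first pair thus ran against the rest, and 26 genes (61.9%, against 13.6% of all genes) were below in pair 1 and above in pairs 2 and 3.

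**Figure D3:**
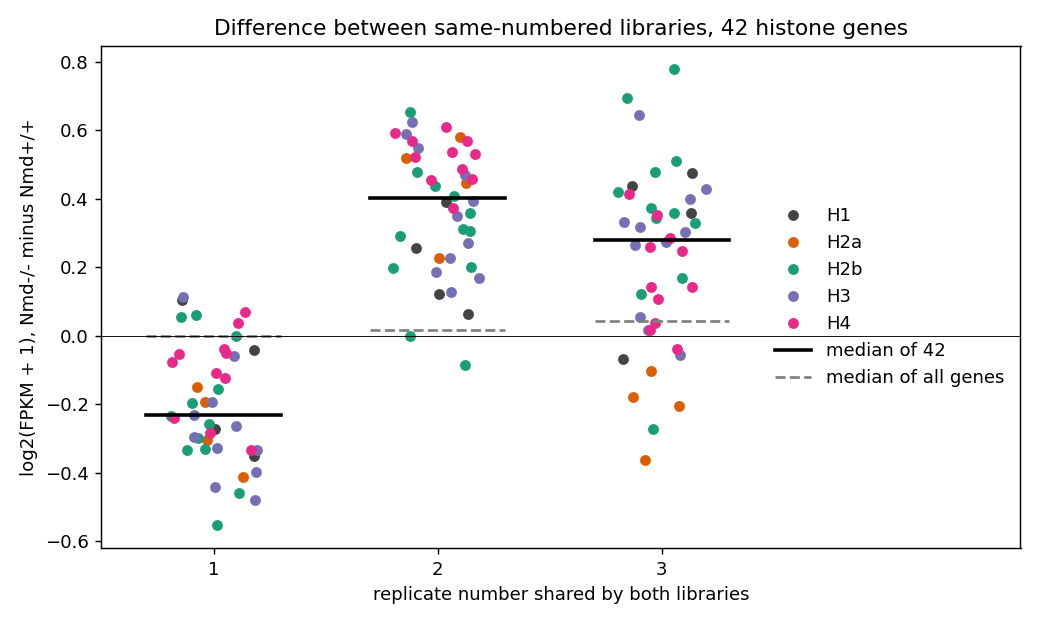
Log2(FPKM + 1) of Nmd-/- minus Nmd+/+ for the 42 tested histone genes in each pair of same-numbered libraries; points are genes coloured by type and spread sideways for legibility only. Solid bars, the medians of the 42 genes, stand at -0.23, 0.40 and 0.28, and dashed bars, the medians of all 14611 tested genes, stand near 0 in each pair.

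The Nmd+/+ libraries differed more from one another than the genotypes did. Nmd+/+ replicate 1 was the highest of its genotype for 38 of 42 genes (90.5%, against 40.9% of all tested genes), and Nmd+/+ replicate 2 the lowest for 25 (59.5%, against 36.7%). Over all 68 genes and 6 libraries, 40 genes were counted as highest in Nmd+/+ replicate 1, among them Hist1h2aa, a tie at 0 in every library. With that gene left out, 34 were lowest in Nmd+/+ replicate 2. These 2 libraries were also those of the greatest and the least depth, and the part of depth in the order was not tested. The median tested histone gene varied 1.99-fold between its highest and lowest library, against 1.53-fold for all tested genes.

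The second comparison asks whether libraries of one replicate number differed from those of the other numbers in both genotypes. It was a moderated F test in limma with genotype as a covariate. Of the 42 tested histone genes, 4 (9.52%) changed with replicate number, against 28.6% of all tested genes, and 8 (19%) had an unadjusted p under 0.05, against 43.3%. The 4 were the H2B gene Hist3h2ba and the H4 genes Hist1h4d, Hist1h4i and Hist1h4c. In direction, number 1 had the highest mean over both genotypes for 35 of 42 genes (83.3%), against 42.9% of all genes. The libraries numbered 1, a single one per genotype, differed in this. Nmd+/+ replicate 1 was the highest of its genotype for 38 of 42 genes (90.5%, against 40.9% of all genes). Nmd-/- replicate 1 was the highest of its genotype for 13 (31%, against 40.5%) and the lowest for 20 (47.6%, against 35.5%).

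Hist3h2ba fell by 1.01 on the log2 scale from number 1 to number 2, and number 3 differed from number 1 by -0.38 (adjusted p = 0.00653, limma). Its levels were given above: 58.8 and 52.7 FPKM in number 1, 23.4 and 31.4 in number 2, 46.8 and 38.6 in number 3, so that the 3 numbers did not overlap. It stayed called with each library left out, with adjusted p between 1.06e-08 and 0.00692.

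The 3 H4 genes had number 1 above the other numbers, which overlapped. Hist1h4d measured 3.13 and 3.02 FPKM in number 1, 1.37 and 2.07 FPKM in number 2, and 1.53 and 1.46 FPKM in number 3 (Nmd+/+ first; adjusted p = 0.0179, limma). Hist1h4c measured 3.14 and 3.25, 1.26 and 2.41, and 1.89 and 1.97 FPKM in the same order (adjusted p = 0.0441), and Hist1h4i, whose values stand above, had an adjusted p of 0.032. Without Nmd+/+ replicate 1 none of the 3 stayed called, with adjusted p of 0.244, 0.492 and 0.635. Without Nmd-/- replicate 1 Hist1h4c was also lost (0.0679), as it was with median-of-ratios scaling (0.0599) and with a pseudocount of 0.1 FPKM (0.0557). Counts behind these values were low: Hist1h4c rested on the equivalent of 15.8 fragments in Nmd+/+ replicate 2.

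The number of histone genes called by replicate number was 4 with all 6 libraries. It changed when a library was left out, as did the number called among all genes. Without the filter on low values it was 0 in limma, with 7 of 67 genes at an unadjusted p under 0.05, and the adjusted p of Hist3h2ba was 0.174. Leaving out a library leaves its number with a lone sample, assumed to vary like the others.

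The Hist3 cluster was lowest in replicate 2 of both genotypes, where neuron markers were lowest and fibroblast markers highest. Its 2 genes summed to 75.1, 33.0 and 60.3 FPKM in Nmd+/+ replicates 1 to 3 and 67.2, 42.8 and 51.1 FPKM in Nmd-/- replicates 1 to 3. The 6 neuron markers (Tubb3, Rbfox3, Snap25, Map2, Stmn2 and Elavl3) summed to 1348, 649.9 and 1300.1 FPKM and to 1263, 687 and 1004 FPKM in the same order. In each genotype both sums were highest in replicate 1, second in replicate 3 and lowest in replicate 2. All 6 neuron markers passed the test of replicate number, which 28.6% of all tested genes did. The 6 fibroblast markers, which all passed it too, moved the other way and were high in replicate 2 alone, summing to 2.22, 141 and 2.34 FPKM in Nmd+/+ and 3.52, 174 and 3.05 FPKM in Nmd-/-. Whether the neuron or the fibroblast content of a library had a part in the Hist3 values was not tested.

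Hist1 followed that order in Nmd+/+ but not in Nmd-/-, at 137, 83.4 and 85.3 FPKM and at 114, 119 and 113 FPKM. Hist2 followed it in neither genotype. The Hist2 sum was 26.2, 22.5 and 21.3 FPKM in Nmd+/+ and 21.2, 26.9 and 24.1 FPKM in Nmd-/-, with no number high in both genotypes. The S phase genes, 27 genes of DNA replication, summed to 825, 855 and 620.4 FPKM against 856, 788 and 895 FPKM, so that the Nmd+/+ library with the most S phase RNA, replicate 2, had the lowest histone sum. In limma, 0 of the 27 passed the test of replicate number at an adjusted p under 0.05, against 28.6% of all tested genes, and 3 had an unadjusted p under 0.05, against 43.3%.

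**Figure D4:**
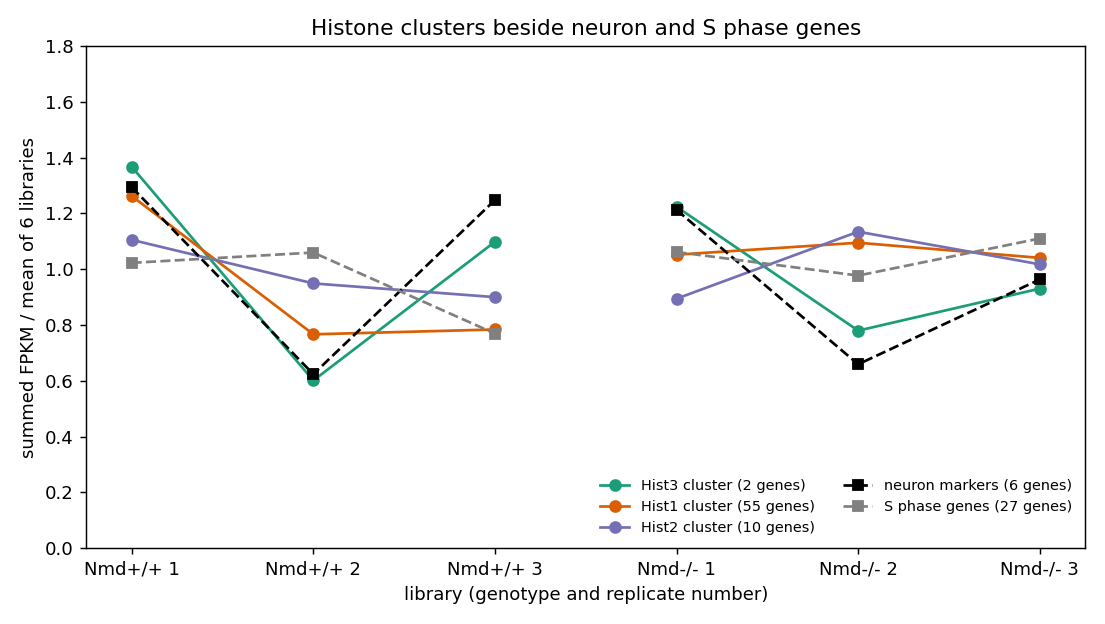
Summed FPKM of 3 histone clusters (solid lines), of 6 neuron markers and of 27 S phase genes (dashed lines) in each library, each divided by its own mean over the 6 libraries; the vertical axis starts at 0. The Hist3 cluster, which spans 33.0 to 75.1 FPKM, has the same order as the neuron markers within each genotype.

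Other genes of histone supply were compared between genotypes from lists, and none of their members passed limma's test (0% of all genes called). At an unadjusted p under 0.05 there was 1, the mitosis gene Cenpf. The SEs below are from this fit, without the replicate block. With the block in limma, unadjusted p was 0.0084 for Cenpf, 0.017 for Plk1 and 0.035 for Cdc45, and above 0.05 for the other list genes named. No adjusted p of these genes was below 0.94. With the block, 3.13% of all genes were higher and 1.74% lower in Nmd-/- at an unadjusted p under 0.05. The counts of differences above 0 given here stand against 56% of all tested genes, or 48.7% with median-of-ratios scaling. Of 19 tested genes of histone transcription and mRNA processing, 15 had a log2 difference above 0, with a median of 0.08 against 0.02 for all genes. Slbp, which encodes the stem-loop binding protein, measured 135, 95.5 and 85.3 FPKM in Nmd+/+ and 129, 111 and 99.4 FPKM in Nmd-/-, a difference of 0.12 (SE 0.20). Npat, the coactivator of histone transcription, measured 8.14, 13.03 and 10.03 FPKM against 8.23, 12.7 and 11.0 FPKM. Both changed with replicate number, in opposite directions: Slbp was highest in number 1 (adjusted p = 0.0354, limma) and Npat in number 2 (adjusted p = 0.0197). Cstf2, a cleavage factor subunit, differed by -0.14 (SE 0.12) and Ccne2, cyclin E2, by 0.19 (SE 0.17).

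Replication-independent histone variants, most of which are made outside S phase too and from polyadenylated mRNA, stood far higher. Their 11 genes had a median of 77.4 FPKM and summed to between 1197 and 1540.3 FPKM, against 139 to 239 FPKM for the 68 replication-dependent genes. Whether mRNA capture had a part in this gap was not tested. H3f3a, which encodes H3.3, lay between 372 and 510.2 FPKM, with a genotype difference of -0.00 (SE 0.16). Larger differences were those of H2afx at 0.30 (SE 0.27) and Cenpa, the centromeric H3, at 0.24 (SE 0.15). H2afx measured 130.3, 72.1 and 66.4 FPKM in Nmd+/+ and 121, 111 and 87.6 FPKM in Nmd-/-, and changed with replicate number (adjusted p = 0.0264, limma).

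Histone chaperones, S phase genes and mitosis genes also had mostly positive differences, none of which passed. Among all tested genes 56% had a difference above 0, or 48.7% with median-of-ratios scaling. Of 17 chaperones, 13 had a difference above 0 (median 0.07). Examples are Rbbp4, a subunit of the assembly factor CAF-1, at 0.11 (SE 0.15), and Chaf1a, another subunit, at 0.21 (SE 0.15). Of 27 S phase genes, 25 did (median 0.17), with Rrm2, a subunit of ribonucleotide reductase, at 0.25 (SE 0.22), Cdc45, a replication helicase component, at 0.35 (SE 0.19) and Mcm2, of the same helicase, at 0.27 (SE 0.17). Of 18 mitosis genes, all had a difference above 0 (median 0.19), with the kinetochore gene Cenpf at 0.37 (SE 0.13), Plk1 at 0.36 (SE 0.22) and Cdk1 at 0.21 (SE 0.18). By pairs, the S phase medians were 0.03, -0.03 and 0.53 in pairs 1, 2 and 3 and the mitosis medians 0.07, -0.09 and 0.61, against -0.23, 0.40 and 0.28 for the histone genes.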

How the data were processed

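RNA-seq of 3 Nmd+/+ and 3 Nmd-/- mouse motoneuron cultures was analysed from FPKM tables of 39174 genes per library, which the authors deposited as Cufflinks output, per the file headers. Tools in the submitters' processing notes are Cufflinks 2.2.1, SAMtools 1.3, cutadapt 1.8, Trim Galore 0.4.0 and FastQC 0.10.1, with the build GRCm38. Not given in the sources used here were the annotation release, the strand setting and the treatment of reads that fit several genes. This last point bears on histone genes: 31 of the 68 share at least 50% of their 50-base words with other members, so reads could be split between them, and their single values are uncertain. Identifiers were matched to GENCODE M21 for 59 members and by symbol for 9. The deposited locus had the same start as the GENCODE M21 gene for 36 of the 68, so the gene models measured differ in part from those searched for sequences.

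Differences were tested in R 4.3.3 with limma 3.58.1 (intensity trend, Benjamini-Hochberg adjustment, two-sided, threshold 0.05) on log2(FPKM + 1), without rescaling, over 14611 genes with a mean of at least 1 FPKM and an accepted status in every library. The pseudocount of 1 understates changes of low genes. Genotype was the only term of the first test. Replicate number was tested by a moderated F test with genotype as covariate. Depth was read from the deposited 95% interval of each FPKM, as the count that would give such a width by counting error alone.

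Deviations from the genotype mean correlated across genes at 0.82, 0.70 and 0.39 between libraries numbered 1, 2 and 3, the highest value for every library being that with its namesake. The numbers were therefore taken to pair the libraries, although no label states it, and a fit with the replicate block was an alternative. Further settings tried were a smaller pseudocount (0.1), no filter, a limit of 5 FPKM, scaling by median of ratios (alone and with the block), leaving out each library, and leaving out replicate 2 of both genotypes.

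Each test was tried on simulated data with known changes, of which it missed part, more among the smaller ones, so that 0 calls do not show an absence of change.

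Members and lists were chosen with earlier results of these data known. The text names the 3 highest members of each type, the 4 per direction with the smallest unadjusted genotype p and the 4 with the smallest p for replicate number, and from each other list the highest gene and the 2 with the smallest unadjusted p, besides Npat and Slbp. Other members, and the splits by poly(A) signal, stem-loop, head-to-head pair and shared words, were chosen after their values were seen. Promoters are RefSeq sequences of GRCm38.p6, matched for 61 members.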

Additional observations from a re-analysis of the deposited data

How the results depend on the processing

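The genotype comparison gave 0 called histone genes under every alternative run, and with the replicate block 0 of 42, also at an unadjusted p under 0.05 (3.13% of all genes higher and 1.74% lower); the block changed no call. The ratio of summed FPKM lay between 0.954 and 1.26. Of the 22 named histone genes, 16 were higher in Nmd-/-, a split set in part by naming 4 genes per direction. With a mean of at least 5 FPKM, where fewer genes are tested, 4 of 6 histone genes were higher, against 57% of all genes. Without the filter on low values, replicate number called 0 histone genes (4 in the main test) and 0 genes in all (4173), with unadjusted p under 0.05 for 7 of 67 and 6348 of 27711, and the cause was not tested. Leaving out 1 library moved these counts between 1 and 13 and between 2281 and 6466. Among 269 values of named genes under alternatives, 239 kept their direction and 30 reversed, 27 of them with 1 library left out. Those log2 differences ranged from -0.038 to 0.096 for Hist1h1e, -0.20 to 0.15 for Hist3h2a, -0.25 to 0.12 for Hist2h2aa1, -0.30 to 0.23 for Hist2h2aa2, -0.38 to 0.26 for Hist3h2ba, -0.0645 to 0.17 for Hist2h2be, -0.064 to 0.29 for Hist2h3c1, -0.070 to 0.13 for Hist1h3c, -0.20 to 0.12 for Hist2h2bb, -0.17 to 0.011 for Hist1h3f and -0.084 to 0.35 for Hist1h4d. Without replicate 2 of both genotypes the differences of Hist1h1e, Hist1h3c and Hist1h4d were -0.0535, -0.14 and -0.039. Depth limits the low members: the least covered tested gene rested on the equivalent of 9.43 fragments in Nmd+/+ replicate 2.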

Other observations

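Some histone entries outside the main comparisons carried signal. The pseudogene Hist3h2bb-ps measured 4.90, 1.58 and 3.79 FPKM in Nmd+/+ replicates 1 to 3 and 3.79, 2.15 and 2.70 FPKM in Nmd-/- replicates 1 to 3, which is the order of Hist3h2ba, and it changed with replicate number (adjusted p = 0.0133, limma). A second histone pseudogene entry, Hist1h2aj, did not exceed 0.136 FPKM. Of the 3 testis-type members, Hist1h2ba lay between 0.359 and 0.924 FPKM, Hist1h1t between 0 and 0.124 FPKM, and Hist1h2aa at 0 throughout. The 18 members with a locus over 1000 bases in the deposited tables summed to 84.5, 64.1 and 61.4 FPKM in Nmd+/+ and 71.1, 77.5 and 76.8 FPKM in Nmd-/-, and the 50 shorter ones to 154, 74.8 and 106 FPKM and to 132, 111 and 112 FPKM.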
